A study of Mus musculus with 3 samples.

Results

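Genes that shifted alike in several kinds of naive brain cells, and genes that shifted in 1 kind only, were sought between mice with no working CCR2 (CCR2-/-) and mice with 1 working copy (CCR2+/-). The cells were those of 4 clusters that the authors had numbered 0, 1, 4 and 6, and they held 3017 cells, out of 3540 deposited in these clusters, 5208 in the brain table and 16328 in the series. A cell was kept as clear when its barcode stood in a single deposited table and at least 0.5 of its hashtag counts came from the 4 hashtags of the brain table. This removed the 1726 brain barcodes that also stood in a blood table and 132 others below the hashtag share. A gene counted as shared when the test called it in the same direction in 2 or more clusters, and as belonging to 1 cluster when it was called there alone and its difference from the mean of the other 3 clusters was called too.

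The brain cells came from female mice of 2 to 3 months on a C57Bl/6 background and labelled naive. Brain samples, of 1 hemisphere each, were digested after perfusion, and immune cells were enriched on a percoll gradient, so the cells are not a census of the brain. Cells of 8 samples carried 1 barcoded hashtag antibody each and were pooled into 1 10x 3' v3 library with 35 further antibodies. The comparison used 2 hashed CCR2+/- and 2 hashed CCR2-/- samples. The labels do not say whether the hashtags of a genotype were separate animals, so the p-values measure only the spread between these samples, which may be technical. The CCR2+/- mice are themselves heterozygous, and wild-type brain was not analysed here. A transcript that the table names RFP was listed for both genotypes, and the labels do not say which allele it belongs to. An exact permutation of 2 against 2 cannot reach a small p, so genes were tested by limma across all genes of a cluster.

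CCR2 is the receptor for the chemokine CCL2, and Ly6C-high monocytes need it to leave the bone marrow and to enter inflamed tissue. Microglia and endothelial cells carry little or no Ccr2 RNA, whereas some T cells and natural killer (NK) cells use the receptor. Several gene programs can rise or fall in many cell types at once: heat shock chaperones and endoplasmic reticulum chaperones fold proteins in the cytosol and in the secretory path, glucocorticoid-induced genes follow the stress hormone receptor, and interferon-induced genes include the MHC class I antigen-presenting proteins.

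The 4 clusters were different kinds of cells. Cluster 1 was microglia-like: all 10 microglia markers lay at least 2-fold above the other clusters. Cluster 4 had all 7 T cell and all 6 NK cell markers so raised, but also all 5 red cell markers, which summed to 422 corrected counts per 10000 against 29.8 for the T cell and 54.7 for the NK cell markers. Of its 10 leading genes 4 were haemoglobins, so it is called by its number. Cluster 6 was endothelium-like, with all 7 endothelial markers so raised, summing to 102.5 corrected counts per 10000. It was mixed, since all 5 fibroblast, 4 of 7 mural, 3 of 4 ependyma and 3 of 6 astrocyte markers were raised too. These classes summed to 15.1, 18.6, 2.02 and 3.59. Cells with endothelial markers made up between 58.6% and 83.1% of the cluster by sample. Cluster 0 held cells of low RNA content, with a median of 1563 raw UMIs per cell against 10044, 6700.5 and 8710 in clusters 1, 4 and 6. Its leading gene was Tmx4, its microglia markers summed to 53.3 corrected counts per 10000 against 219 in cluster 1, only 2 of the 10 were raised, and neutrophil markers summed to 37.3, so it was left without a cell type name. The deposited values had been lifted to a common depth, so that in this cluster 0.31 raw UMIs stood behind each corrected count. The samples gave between 235 and 409 cells in cluster 0, 240 and 404 in cluster 1, 31 and 86 in cluster 4, and 61 and 111 in cluster 6. Summed corrected counts per sample and cluster ran from 203799 to 3098635, with the smallest in cluster 4.

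Levels below are corrected counts per 10000 counts of a cluster in a sample, given for the 2 CCR2+/- samples first and the 2 CCR2-/- samples second. Differences are log2 values, CCR2-/- minus CCR2+/-, of the level plus 0.05, with their standard error (SE), and a gene is called at an adjusted p below 0.05. In sums over cells a lower level can mean fewer cells of a type or less RNA in each, and these cannot be told apart. The same 4 samples stand behind every cluster, so the clusters are not independent tests, and the counts of genes called or separated alike in several clusters describe these samples only.

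Only 3 genes were called alike in 2 clusters, 0.0291% of the 10319 genes tested in 2 or more: Il1a and Gbp5 were higher and Tmem86a was lower in CCR2-/- samples. The clusters differed in how many genes were called. In cluster 1, 60 of 10713 genes passed (0.56%), 29 higher (0.271%) and 31 lower (0.289%). In cluster 6, 12 of 9485 passed (0.127%), 10 of them higher (0.105%) and 2 lower (0.0211%). In cluster 0, 10 of 9889 passed (0.101%), 2 of them higher (0.0202%) and 8 lower (0.0809%), and in cluster 4 the single call among 7115 genes (0.0141%) was Ccr2 itself. Over the 4 clusters, 80 genes carried 83 calls, and 0 genes were called in opposite directions. These calls rest on a spread that limma shares between genes of a like level. Without that trend 0 genes were called in any of the 4 clusters by limma, although 530, 863, 286 and 761 genes had an unadjusted p below 0.05 in clusters 0, 1, 4 and 6.

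Il1a, which encodes the alarm cytokine interleukin 1 alpha, rose in clusters 0 and 1. Cluster 0 had levels of 4.39 and 5.61 against 6.89 and 7.80. In cluster 1 it was 4.75 and 6.31 against 9.39 and 9.65. In both clusters each CCR2-/- sample lay above each CCR2+/- sample. The differences were 0.56 (SE 0.11, limma adjusted p = 0.0188) and 0.79 (SE 0.11, limma adjusted p = 0.000624). In clusters 4 and 6 the level was below 1 in every sample and the groups overlapped, with differences of -0.05 and 0.58. The cluster 0 call, and with it the place of Il1a among the shared genes, was lost without CCR2+/- sample 1 (0.38) or without CCR2-/- sample 2 (0.47), and also with all deposited cells (0.53), with a minimum of 5 or of 60 counts or a pseudocount of 1 count (0.56 in each), and with each cell thinned to 1000 counts (0.43, limma adjusted p = 0.467). The cluster 1 call held under each of these settings and without any 1 sample, between 0.59 and 1.00.

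Gbp5, a guanylate-binding protein induced by interferon gamma, rose in clusters 1 and 6. Its level was 0.31 and 0.447 against 0.647 and 0.62 in cluster 1, and 0.481 and 0.485 against 1.66 and 1.38 in cluster 6. The groups did not overlap in either cluster. The differences were 0.69 (SE 0.15, limma adjusted p = 0.0201) and 1.55 (SE 0.24, limma adjusted p = 0.0452). In cluster 0 the level was 0.175 and 0.328 against 0.276 and 0.472, which overlapped, and cluster 4 had too few counts for a test. Between 73.9% and 96.9% of the Gbp5 counts of cluster 6 lay in cells that carried endothelial markers. Among those cells alone the difference was 1.47 (limma adjusted p = 0.0611), so that the gene was no longer called there. The cluster 1 call was also lost without CCR2+/- sample 1 (0.46), CCR2-/- sample 1 (0.66) or CCR2-/- sample 2 (0.72), and the cluster 6 call without CCR2-/- sample 1 (1.43) or CCR2-/- sample 2 (1.68).

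Tmem86a, which encodes an enzyme that breaks down lysoplasmalogen lipids, fell in clusters 1 and 6, but in cluster 6 its RNA lay mostly outside the endothelial cells. Its level was 2.70 and 2.34 against 1.64 and 1.77 in cluster 1, and 1.11 and 1.58 against 0.28 and 0.298 in cluster 6. All CCR2-/- samples lay below all CCR2+/- samples in both clusters. The differences were -0.55 (SE 0.10, limma adjusted p = 0.00543) and -2.02 (SE 0.27, limma adjusted p = 0.0317). Of the 88, 75, 12 and 14 counts in cluster 6, only 10, 3, 0 and 3 came from cells with endothelial markers, too few to test. Mural markers of this cluster summed to 29.8 and 12.6 against 12.6 and 11.1, and fibroblast markers to 8.99 and 37.3 against 13.9 and 4.13; their part in the Tmem86a difference was not tested. The call in cluster 1 was lost without CCR2+/- sample 1 (-0.45), and that in cluster 6 without either CCR2-/- sample (-1.99 and -2.06).

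**Figure D1:**
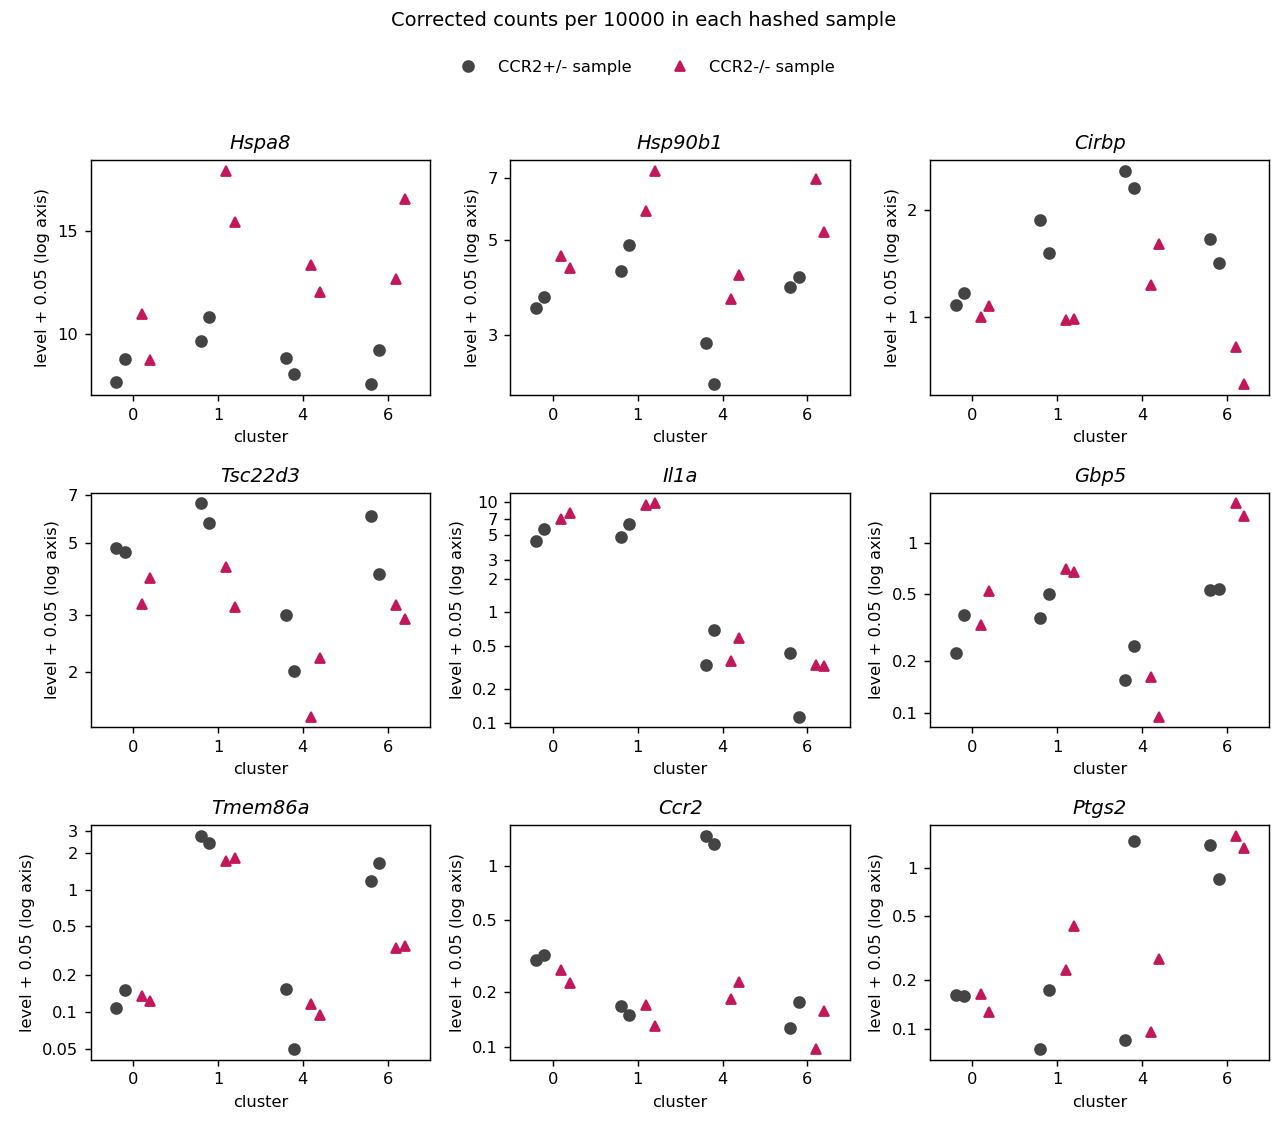
Levels of 9 genes in each hashed sample (corrected counts per 10000 plus 0.05, log axis) in clusters 0, 1, 4 and 6; circles are CCR2+/- samples and triangles CCR2-/- samples. Il1a separates the genotypes in clusters 0 and 1, Gbp5 and Tmem86a in clusters 1 and 6, and Ccr2 most widely in cluster 4, where it is 1.42 and 1.28 against 0.134 and 0.178.

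The mean of the 4 differences, which gives each cluster the same weight, called 20 of 6157 genes (0.325%), 12 higher (0.195%) and 8 lower (0.13%). The 12 that rose were the chaperones Hspa8, Hsp90ab1, Dnaja1, Hsp90b1 and Calr, the MHC class I genes H2-Q7, H2-Q6, H2-Q4, H2-K1, H2-D1 and B2m, and Il1b. The 8 that fell were Cirbp, Tsc22d3, Fkbp5, Mt1, Lrp1, Lmo4, Rassf2 and Ptgds. A called mean does not require that all 4 clusters moved. For 5 of the 20 genes the genotypes did not overlap in any of the 4 clusters, for 11 in 3 clusters, for B2m in 2, and for H2-K1, H2-Q6 and Ptgds in 1. Among all 6157 genes, 0.0975% lay higher and 0.341% lower without overlap in all 4 clusters, and 1.98% and 3.22% in 3 or more. The 20 genes were called from these same samples, so this order follows in part from the choice. Hspa8 and Cirbp were called whichever sample was left out. With cluster 6 kept to its cells with endothelial markers, 6 genes were called: Hspa8 (0.53), Cirbp (-0.78), Hsp90b1 (0.49), H2-Q7 (0.79), Calr (0.51) and Tsc22d3 (-0.65). With each cell thinned to 1000 corrected counts 0 genes were called.

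**Figure D2:**
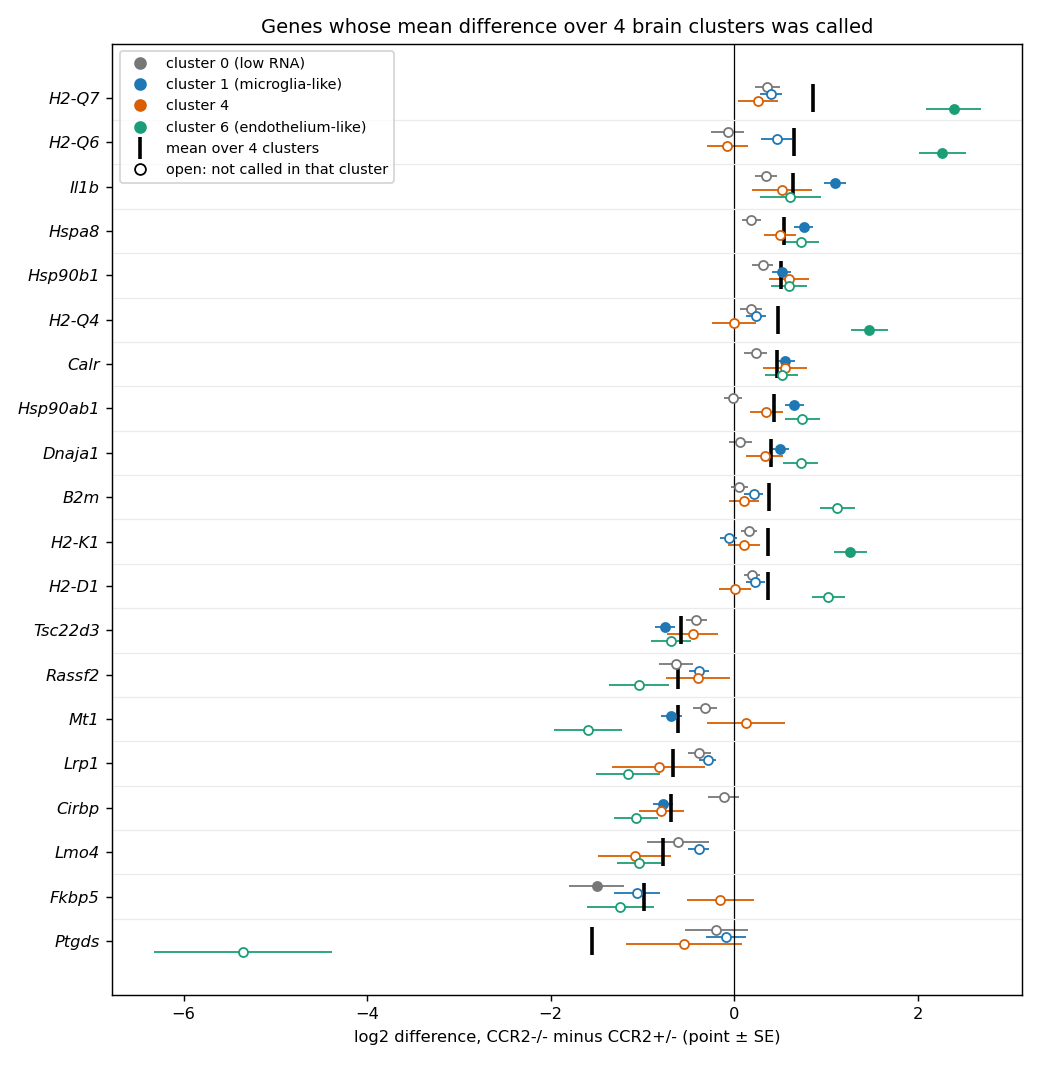
Log2 differences (CCR2-/- minus CCR2+/-, point ± SE) in each cluster for the 20 genes whose mean over the clusters was called; filled points were called in that cluster and black bars give the mean. Hspa8 lies at 0.76, 0.50 and 0.73 in clusters 1, 4 and 6, whereas H2-K1 lies at 1.27 in cluster 6 and between -0.06 and 0.16 in the others, and Ptgds at -5.36 in cluster 6 and between -0.55 and -0.09 in the others.

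The mean over the clusters rose for 5 chaperones, and in the single clusters chaperones were called in cluster 1 alone. Beside them, 13 of 13 mitochondrially encoded genes lay above 0 in cluster 0 (median 0.21) and 12 of 13 in cluster 1 (0.17), while 12 of 13 lay below 0 in cluster 4 (-0.25) and in cluster 6 (-0.18). None of the 13 was called by limma in any of the 4 clusters, and their part in the chaperone values was not tested. Hspa8, the constitutive Hsc70 chaperone (chr9:40801276-40805202, GRCm38.p6), had levels of 9.66 and 10.6 against 19.0 and 15.5 in cluster 1, 9.03 and 8.49 against 13.1 and 11.7 in cluster 4, and 8.15 and 9.35 against 12.4 and 16.9 in cluster 6. In these clusters the genotypes did not overlap, and in cluster 0, at 8.23 and 9.01 against 10.8 and 8.95, they did. The mean difference was 0.54 (SE 0.07, limma adjusted p = 0.00578), a 1.46-fold rise. Hsp90ab1, a cytosolic Hsp90, had a mean of 0.43 and -0.01 in cluster 0, and the mean lost its call without CCR2+/- sample 1 (0.38) or CCR2-/- sample 2 (0.38). Dnaja1, an Hsp40 partner of Hsc70, had a mean of 0.40 and 0.07 in cluster 0.

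Among 14 listed heat shock chaperones, 5 were called higher in cluster 1 (Hspa8, Hsp90ab1, Dnaja1, Stip1 and Hsph1), against 0.271% of all genes there. In clusters 0, 4 and 6, 0 were called (583, 273 and 755 genes of all kinds had an unadjusted limma p below 0.05 there). This list and those below were chosen with earlier results of these data known, so their counts are not an independent test. The median difference of the tested members was 0.27, 0.44, 0.43 and 0.23 in clusters 0, 1, 4 and 6, against -0.03, -0.03, 0.04 and -0.10 for all genes. All 14 lay above 0 in cluster 1 and all 12 tested in cluster 4. The cluster 0 median fell to -0.01 without CCR2-/- sample 1. Hsph1, the Hsp110 exchange factor, had the largest listed difference in cluster 1, from 0.0838 and 0.113 to 0.28 and 0.287 (1.18, SE 0.19), and was called there without any 1 sample. It stood at 1.08 in cluster 4 and at -0.08 in cluster 6, neither of them called.

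Chaperones of the endoplasmic reticulum were also called in cluster 1. Hsp90b1, the Hsp90 of that compartment, was separated by genotype in every cluster: 3.42 and 3.65 against 4.54 and 4.26 in cluster 0, 4.20 and 4.83 against 5.82 and 7.22 in cluster 1, 2.83 and 2.26 against 3.6 and 4.09 in cluster 4, and 3.85 and 4.05 against 6.92 and 5.17 in cluster 6. Its mean difference was 0.50 (SE 0.08, limma adjusted p = 0.0103), and it was lost without CCR2+/- sample 2 (0.51). Calr, the lectin chaperone calreticulin, had a mean of 0.47 (limma adjusted p = 0.0411) with differences of 0.23, 0.56, 0.56 and 0.52 in clusters 0, 1, 4 and 6; without CCR2+/- sample 1 it was 0.35 and without CCR2-/- sample 2 it was 0.40, neither called. Hspa5, the BiP chaperone, was called in cluster 1 (10.6 and 11.4 against 17.0 and 15.6, 0.56), a call lost without CCR2+/- sample 1 (0.51), and its differences in clusters 0, 4 and 6 were 0.32, 0.01 and 0.30.

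Of the 12 listed chaperones of this compartment, 5 were called higher in cluster 1 (Hspa5, Hsp90b1, Calr, Manf and Sdf2l1), against 0.271% of all genes there. The median difference of the tested members was 0.16, 0.45, 0.10 and 0.38 in clusters 0, 1, 4 and 6. The ER stress response element, CCAAT and CCACG with 9 bases between them, on either strand of the 250 bases before the start, stood in 6 of the 10 listed genes with a RefSeq promoter (Hspa5, Hsp90b1, Pdia6, Calr, Canx and Creld2) and in 35 of 27025 genes in all (0.13%). The match is a description of these letters and not of a factor bound there. Those of Hsp90b1 (chr10:86705445-86705661 on the minus strand), Calr (chr8:84846932-84847098 on the minus strand) and Hspa5 (chr2:34771990-34772089 on the plus strand), from RefSeq on GRCm38.p6, are shown because they are the members called in cluster 1 that hold the element; they run 5′ to 3′ toward the gene, up to the base before its start, with the element in capitals.
Hsp90b1: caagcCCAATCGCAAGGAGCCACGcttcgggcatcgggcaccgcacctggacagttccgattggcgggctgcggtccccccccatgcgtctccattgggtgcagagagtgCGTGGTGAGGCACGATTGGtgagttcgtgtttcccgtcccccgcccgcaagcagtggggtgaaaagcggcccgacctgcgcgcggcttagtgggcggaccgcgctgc
Calr: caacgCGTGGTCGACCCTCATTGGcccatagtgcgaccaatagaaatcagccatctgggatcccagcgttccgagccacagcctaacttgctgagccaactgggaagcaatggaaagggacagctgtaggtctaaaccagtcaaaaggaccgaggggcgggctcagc
Hspa5: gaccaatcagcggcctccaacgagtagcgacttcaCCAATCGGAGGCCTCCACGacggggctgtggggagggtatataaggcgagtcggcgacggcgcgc
Hsp90b1 holds the element once on each strand, Calr on the opposite strand and Hspa5 on the strand of the gene. A heat shock element, GAA, TTC and GAA or TTC, GAA and TTC with 2 bases between the units and either strand searched, was sought in the same way. It stood in 2 of the 11 listed heat shock chaperones with a RefSeq promoter (Hspd1 and Hspe1) and in 0.514% of all genes. Hspa8 and Hsp90ab1 had no promoter there and were not searched.

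Cirbp, an RNA-binding protein induced by mild cold, was lower on the mean over the clusters in CCR2-/- samples. It was 1.03 and 1.12 against 0.952 and 1.03 in cluster 0, 1.83 and 1.47 against 0.932 and 0.939 in cluster 1, 2.54 and 2.26 against 1.19 and 1.56 in cluster 4, and 1.61 and 1.37 against 0.771 and 0.596 in cluster 6. The samples were separated in every cluster, by very little in cluster 0. The mean difference was -0.69 (SE 0.10, limma adjusted p = 0.0103). Rbm3, the related cold-shock protein, was called in cluster 1 (-0.50, limma adjusted p = 0.0369) and stood at 0.01, -0.70 and -0.93 in clusters 0, 4 and 6. The cluster 1 call of Rbm3 was lost without CCR2+/- sample 1 (-0.41) or CCR2-/- sample 2 (-0.27). Of the other cold-inducible and clock genes in the list of 19, 0 were called in any cluster, and the list's medians were 0.11, -0.05, -0.29 and -0.47 in clusters 0, 1, 4 and 6.

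Of the glucocorticoid-induced genes, 3 fell on the mean over the clusters. Tsc22d3, which encodes the glucocorticoid-induced leucine zipper, had levels of 4.75 and 4.62 against 3.19 and 3.85 in cluster 0, 6.55 and 5.68 against 4.14 and 3.11 in cluster 1, 2.94 and 1.96 against 1.41 and 2.16 in cluster 4, and 5.98 and 3.97 against 3.16 and 2.85 in cluster 6. The genotypes overlapped in cluster 4 only. Its mean difference was -0.58 (SE 0.10, limma adjusted p = 0.0237), and it was lost without CCR2+/- sample 1 (-0.40). Fkbp5, a co-chaperone of the glucocorticoid receptor, fell in cluster 0 from 0.625 and 0.429 to 0.153 and 0.149 (-1.50, SE 0.30, limma adjusted p = 0.0188). It stood at -1.06 in cluster 1, where an adjusted p of 0.0513 from limma missed the threshold, at -1.24 in cluster 6 and at -0.15 in cluster 4. Its call in cluster 0 was lost without CCR2+/- sample 1 (-1.25), CCR2-/- sample 1 (-1.51) or CCR2-/- sample 2 (-1.48), and its mean of -0.99 lost its call without CCR2+/- sample 1 (-0.67) or CCR2-/- sample 2 (-0.84).

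The metallothionein Mt1, which binds zinc and copper, was 7.86 and 6.38 against 3.88 and 4.96 in cluster 1 and 11.0 and 4.75 against 3.18 and 1.75 in cluster 6, with a mean of -0.62 that was lost without CCR2+/- sample 1 (-0.45). In cluster 6 only 104, 42, 45 and 41 of its 867, 225, 136 and 82 counts lay in the cells with endothelial markers, and among those the difference was -0.52 in place of -1.59. Of 16 listed genes, 1 was called lower in cluster 0 (Fkbp5), 3 in cluster 1 (Tsc22d3, Mt1 and Sult1a1) and 3 in the mean (Tsc22d3, Fkbp5 and Mt1), and 0 were called higher. Among all genes, 0.0809%, 0.289% and 0.13% were called lower in these fits. The medians were -0.10, -0.29, -0.21 and -0.88 in clusters 0, 1, 4 and 6, and that of cluster 4 was 0.10 without CCR2-/- sample 1. The full glucocorticoid response element, AGAACA and TGTTCT with 3 bases between them on either strand, stood in 1 of 14 listed promoters (Sgk1) and in 0.0111% of all genes.

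**Figure D3:**
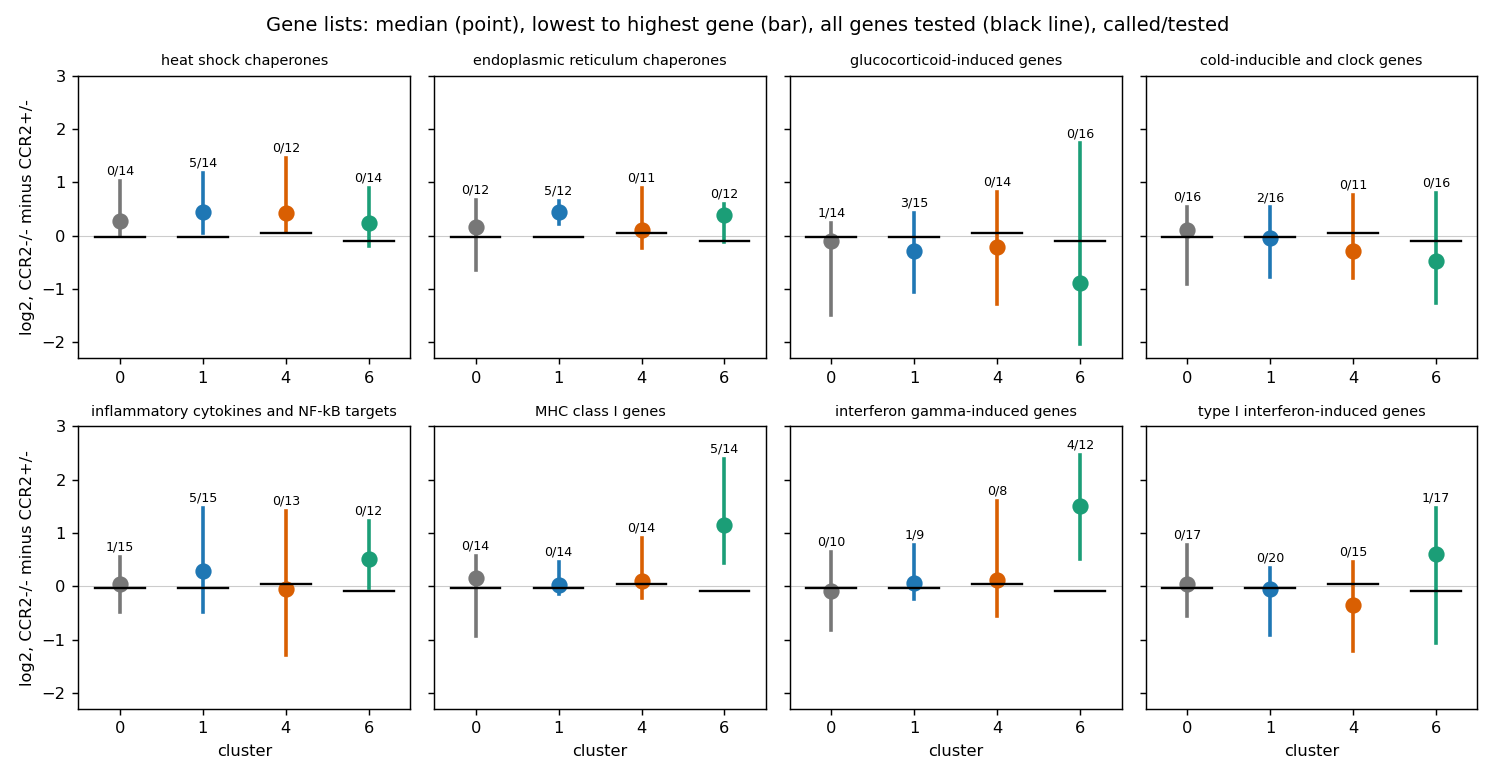
For 8 gene lists: the median log2 difference (CCR2-/- minus CCR2+/-) of the tested members in each cluster (point), their lowest and highest gene (bar), the median of all genes tested there (black line) and the number called of the number tested. Chaperone medians lie above the line in every cluster, while MHC class I and interferon gamma-induced genes stand clear of it in cluster 6, at 1.14 and 1.51.

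MHC class I genes and guanylate-binding proteins rose in the endothelium-like cluster. H2-K1, a classical class I heavy chain, was 11.0 and 10.7 against 28.8 and 23.8 in cluster 6 (1.27, SE 0.18, limma adjusted p = 0.032). In clusters 0, 1 and 4 its differences were 0.16, -0.06 and 0.11. B2m, the light chain of class I, was 13.9 and 13.5 against 34.5 and 25.8 in cluster 6 (1.12, limma adjusted p = 0.0701, not called) and had differences of 0.05, 0.21 and 0.11 in the others. H2-Q7, a non-classical class I gene, was 1.06 and 0.696 against 6.40 and 3.49 in cluster 6, and its differences of 0.36, 0.40 and 0.26 in clusters 0, 1 and 4 were not called. H2-Q6 and H2-Q7 are near-identical, as are other genes of this locus, so the split of reads between them is uncertain.

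Tap1, which carries peptides to class I, was 0.468 and 0.38 against 1.94 and 1.38 in cluster 6 (1.84), and Gbp7, a guanylate-binding protein, was 1.04 and 1.33 against 4.82 and 3.22 (1.70). In every one of these genes both CCR2-/- samples lay above both CCR2+/- samples in cluster 6. All but B2m were called higher there, so this order follows in part from the choice of genes. The share of all genes so ordered in cluster 6 is not given here. In that cluster 5 of 14 MHC class I genes and 4 of 12 interferon gamma-induced genes (Gbp4, Gbp5, Gbp7 and Igtp) were called higher, against 0.105% of all genes. All 14 and all 12 of these genes lay above 0, with medians of 1.14 and 1.51 against -0.10 for all genes tested there. Bst2, the virion tether tetherin, was the 1 called among 17 type I interferon-induced genes there. In cluster 1 only Gbp5 of these lists was called. The type I list had medians of 0.04, -0.05, -0.35 and 0.60 in clusters 0, 1, 4 and 6.

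The test of cluster 6 against the mean of the other 3 clusters called 0 genes by limma; 384 had an unadjusted p below 0.05, and the lowest adjusted p was 0.0636. H2-K1 differed there by 1.20, H2-Q7 by 2.05 and H2-Q6 by 2.16. By that test the interferon genes cannot be said to belong to cluster 6 only. Gbp5 was not in the test, since cluster 4 had too few of its counts. H2-K1, H2-Q6 and H2-Q7 became genes of cluster 6 only with a pseudocount of 0.2 or a minimum of 5 counts. Median-of-ratios scaling did the same for H2-Q6 and H2-Q7. Other settings that kept all 4 samples gave no gene of cluster 6 only. The calls of cluster 6 did not hold when a CCR2-/- sample was left out: without either of them it had 0 calls, and without CCR2+/- sample 1 or 2 it had 221 and 191. With a hashtag share of at least 0.8 required of each cell, cluster 6 also had 0 calls. The differences themselves were 1.13 to 1.41 for H2-K1 and 1.96 to 2.82 for H2-Q7 over the 4 fits without 1 sample. The means of B2m, H2-K1 and H2-D1 were called only without CCR2+/- sample 1 among the 4 fits (0.40, 0.38 and 0.42), and those of H2-Q4 and H2-Q6 only without CCR2-/- sample 2 (0.52 and 0.84).

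The share of cluster 6 cells with endothelial markers was 58.6% and 59.4% against 65.6% and 83.1%. Within those cells alone, Gbp4 was still called at 2.39 (limma adjusted p = 0.00447), as were Igtp (2.63), H2-Q6 (2.02) and H2-Q7 (2.14), whereas H2-K1 stood at 1.05 (limma adjusted p = 0.0907) and B2m at 0.90. Ctgf, a matricellular growth factor also named Ccn2, was the other gene called lower in the whole cluster (2.91 and 5.59 against 0.538 and 0.703, -2.62). Within the endothelial cells it was -1.35 with a limma adjusted p of 0.781.

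The gamma-activated site TTCNNNGAA stood in 4 of the 9 genes called higher in cluster 6 that have a RefSeq promoter and the interferon-stimulated response element, GAAA and GAAA with 2 bases between them, also in 4 of 9 (Gbp5, Gbp7, Igtp and Bst2 in both cases), against 8.13% and 3.46% of all 27025 genes, both strands being searched. The 2 motifs can overlap, since both may use the letters GAA. Of the 10 genes called higher in the mean that have a promoter there, only B2m held the response element, and 0 held the gamma-activated site. Among 13 listed MHC class I genes, 3 held the response element and 2 the gamma-activated site. The promoters of Gbp5 (chr3:142496684-142496933 on the plus strand), Igtp (chr11:58199456-58199555 on the plus strand) and B2m (chr2:122147543-122147686 on the plus strand) are printed, with the 2 motifs in capitals. Gbp5 was the shared gene and B2m was called in the mean. Igtp was called in cluster 6, but its difference from the other clusters was not called.
Gbp5: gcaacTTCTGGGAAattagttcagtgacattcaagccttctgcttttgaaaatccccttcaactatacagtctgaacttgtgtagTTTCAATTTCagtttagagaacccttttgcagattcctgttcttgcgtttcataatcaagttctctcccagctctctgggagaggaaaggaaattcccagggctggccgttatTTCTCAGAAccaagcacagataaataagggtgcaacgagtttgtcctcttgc
Igtp: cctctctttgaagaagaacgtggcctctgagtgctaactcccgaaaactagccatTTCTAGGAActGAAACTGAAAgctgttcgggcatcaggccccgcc
B2m: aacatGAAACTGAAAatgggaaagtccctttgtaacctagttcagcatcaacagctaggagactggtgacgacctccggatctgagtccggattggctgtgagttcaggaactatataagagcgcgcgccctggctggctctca
In Gbp5 the capitals near the ends of the window are gamma-activated sites and the one between them is the response element read on the opposite strand. Igtp has 1 of each, and B2m has the response element alone.

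Inflammatory genes rose in cluster 1 and, apart from Il1a in cluster 0, were not called in the other clusters. Il1b, interleukin 1 beta, was separated in all 4 clusters: 2.83 and 3.12 against 3.71 and 3.86 in cluster 0, 1.28 and 1.68 against 3.71 and 2.76 in cluster 1, 0.455 and 0.393 against 0.738 and 0.534 in cluster 4, and 0.531 and 0.274 against 0.631 and 0.596 in cluster 6. The mean difference was 0.64 (SE 0.11, limma adjusted p = 0.0237), lost without CCR2+/- sample 2 (0.58). Microglia markers summed to between 4.48 and 11.6 in cluster 4 and between 17.6 and 20.6 in cluster 6. Over all samples Sparc alone made up 13.8 of 19.1 in cluster 6, and 0.879 of 7.37 in cluster 4. These sums therefore do not compare microglia RNA between the clusters. The part of microglia RNA in the Il1b values there was not tested. Tnfaip2, a tumour necrosis factor-induced gene, rose in cluster 1 (0.503 and 0.506 against 1.00 and 0.855, 0.82), also without any 1 sample, and stood at 0.37 and -0.03 in clusters 0 and 6. Of 16 listed genes 5 were called higher in cluster 1 (Il1b, Il1a, Tnfaip2, Cxcl2 and Ptgs2), against 0.271% of all genes there. The list's medians were 0.05, 0.28, -0.05 and 0.51 in clusters 0, 1, 4 and 6.

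The remaining genes that fell on the mean over the clusters were Lmo4, Lrp1, Rassf2 and Ptgds. Lmo4, a LIM-domain cofactor of transcription, was 4.06 and 5.99 against 2.83 and 2.00 in cluster 6 and 1.75 and 5.10 against 1.12 and 1.71 in cluster 4, with a mean of -0.78 that was lost without CCR2+/- sample 2 (-0.54). Lrp1, an endocytic receptor of the LDL receptor family, had differences of -0.38, -0.29, -0.82 and -1.16 in clusters 0, 1, 4 and 6 and a mean of -0.66, lost without CCR2+/- sample 2 (-0.54). Rassf2, a Ras-association domain protein, had differences of -0.63, -0.39, -0.39 and -1.04 and a mean of -0.61, which was lost without CCR2+/- sample 1 (-0.67), CCR2+/- sample 2 (-0.55) or CCR2-/- sample 2 (-0.64). Ptgds, the prostaglandin D2 synthase made by meningeal and choroid plexus cells, was 20.7 and 80.8 against 0.21 and 3.79 in cluster 6. In 3 of these 4 samples 1 cell held 86.7%, 94.5% and 90.4% of the counts, and the cells with endothelial markers held only 4, 3, 2 and 10 of 1636, 3828, 9 and 178 counts.

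The order of the samples was also counted with no test. Among the 6157 genes tested in all 4 clusters, both CCR2-/- samples lay above both CCR2+/- samples in every cluster for 6 genes (0.0975%) and below for 21 (0.341%), and in 3 or more clusters for 122 (1.98%) and 198 (3.22%). The 6 were Il1b, Hsp90b1, Cacybp, Prpf8, Srp19 and Cdc42, and the 21 included Cirbp, Rassf2, Lmo4, Tmem9, Pmp22, Ppp1r15b and Zbtb20. Cacybp, a calcyclin-binding partner of the ubiquitin path, had differences of 0.64, 0.33, 0.87 and 0.40 in clusters 0, 1, 4 and 6 and a mean of 0.56 that was not called (limma adjusted p = 0.179). Pmp22, a membrane protein of myelin and vessels, was called in cluster 1 (-0.41), a call lost without CCR2+/- sample 1 (-0.40), CCR2+/- sample 2 (-0.43) or CCR2-/- sample 2 (-0.35), and stood at -0.28, -1.02 and -0.48 in the others, with a mean of -0.55 (limma adjusted p = 0.0948).

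Shifts of 1 cluster only were called in cluster 1 and in no other. The difference of cluster 1 from the mean of the other 3 was called for 9 of 6157 genes (0.146%), and 5 of them (0.0812%) were also called in cluster 1 and nowhere else: Ptgs2, Rgs1, Hba-a1, Hba-a2 and Hbb-bs. For clusters 0 and 4 this test by limma called 0 genes, with 324 and 250 at an unadjusted p below 0.05. Of 61 genes called in 1 cluster and tested in all 4, those other than these 5 were not shown to differ from the other clusters.

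Ptgs2, the inducible cyclooxygenase 2 of prostaglandin synthesis, was 0.0246 and 0.125 against 0.181 and 0.384 in cluster 1 and overlapped in the others, at 0.111 and 0.109 against 0.115 and 0.0771 in cluster 0, 0.035 and 1.42 against 0.0448 and 0.223 in cluster 4, and 1.35 and 0.802 against 1.54 and 1.28 in cluster 6. The cluster 1 difference was 1.47 and its difference from the other clusters 1.76 (SE 0.29, limma adjusted p = 0.00045). A count was found in 1.9% and 3.8% of CCR2+/- and 6.7% and 7.9% of CCR2-/- cells of cluster 1. In cluster 4 a single cell held all 29 counts of CCR2+/- sample 2, and this cell adds to the difference of 1.76. The cluster 1 call was lost without CCR2+/- sample 1 (0.85) or CCR2-/- sample 2 (1.01). Thinning to 1000 counts, a minimum of 60 counts, or leaving out each gene's highest cell removed Ptgs2 from the genes of 1 cluster only.

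Rgs1, a brake on chemokine receptor signalling, was 5.46 and 3.68 against 3.15 and 2.26 in cluster 1, and both CCR2-/- samples lay below. The samples were separated in cluster 0 too, at 5.83 and 6.34 against 4.50 and 5.15 (-0.33, not called). It overlapped in cluster 4 at 10.9 and 6.92 against 9.69 and 8.90, and was 0.139 and 0.0422 against 0.21 and 0.213 in cluster 6. This rise in cluster 6, at low levels, adds to the size of the difference between cluster 1 and the others. The cluster 1 difference was -0.74 (limma adjusted p = 0.00703) and its difference from the others -0.99 (limma adjusted p = 0.00056). The first was lost without CCR2+/- sample 1 (-0.46) or CCR2-/- sample 2 (-0.50), and the second held without any 1 sample, between -1.24 and -0.74. Rgs1 was not among the genes of 1 cluster only at a minimum of 60 counts or a hashtag share of 0.8. The same held after thinning and with cluster 6 kept to endothelial cells.

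The 3 haemoglobin genes rested on 1 cell in each CCR2-/- sample. Hbb-bs, an adult beta-globin, was 0.453 and 1.93 against 8.25 and 2.94 in cluster 1 (2.32), and the cell with most counts held 2.2%, 78.1%, 94.6% and 82.2% of them. Cells in which at least 10% of counts were haemoglobin numbered 0, 0, 1 and 1 in the 4 samples of cluster 1. Without these cells Hbb-bs, Hba-a1 and Hba-a2 stood at -0.90, -0.89 and -0.51, none of them called. The globin genes are near-identical copies, so reads may be split between them. Ptgs2 and Rgs1 were called alone in cluster 1 with these cells left out too.

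**Figure D4:**
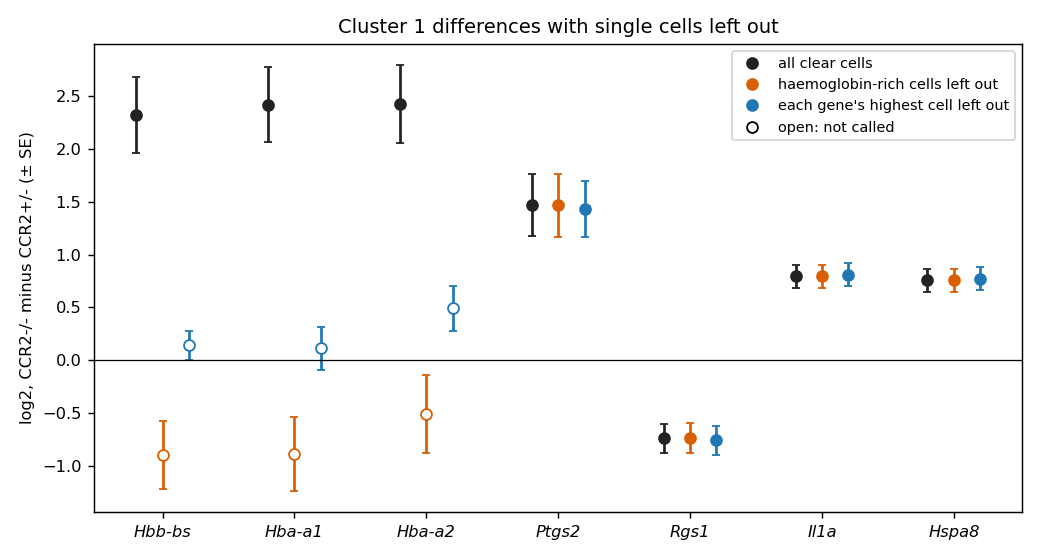
Log2 differences (CCR2-/- minus CCR2+/-, ± SE) of 7 genes in cluster 1 over all clear cells, without haemoglobin-rich cells and without each gene's highest cell; open points were not called. The 3 haemoglobin genes drop from 2.32, 2.42 and 2.43 to below 0 without the haemoglobin-rich cells, and Ptgs2, Rgs1, Il1a and Hspa8 keep differences of 1.47, -0.73, 0.79 and 0.76.

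Ccr2 itself (chr9:124101918-124109140) was the only call of cluster 4, at 1.42 and 1.28 against 0.134 and 0.178 (-2.77, SE 0.33, limma adjusted p = 0.0172). A Ccr2 count was found in 40.7% and 41.9% of the CCR2+/- and 6.25% and 8.96% of CCR2-/- cells there. In cluster 0 the level was 0.251 and 0.269 against 0.215 and 0.173, and in cluster 1 it was 0.118 and 0.1 against 0.121 and 0.0807, differences of -0.35 and -0.09 that were not called. The transcript named RFP was 3.66 and 3.24 against 6.35 and 5.90 in cluster 4 (0.82, limma adjusted p = 0.994, not called), with a count in 64.0% to 64.5% of cells of every sample. The Ccr2 call was lost without CCR2+/- sample 1 (-2.69) or CCR2+/- sample 2 (-2.84), with the size kept.

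The cell make-up of cluster 4 differed between samples beside its single call. Red cell markers summed to 237 and 718 against 697 and 250, and 3.49% and 6.45% against 7.81% and 4.48% of its cells were rich in haemoglobin. T cell markers summed to 30.6 and 15.9 against 34.1 and 30.8, NK cell markers to 34.4 and 63.9 against 46.9 and 84.0, and the share of cells in the authors' CD45-low gate was 4.65% and 9.68% against 12.5% and 23.9%. Their part in the cluster 4 values was not tested.

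Cluster 0 had 10 calls, and none but Il1a was shared. Slc15a2, a transporter of short peptides, was 1.29 and 0.672 against 0.046 and 0.332 (-2.36, SE 0.36, limma adjusted p = 0.0012), a 5.14-fold fall that held without any 1 sample, between -3.36 and -1.36. Both CCR2-/- samples lay below both CCR2+/- samples, although the samples of each genotype lay far apart. Its differences in clusters 1, 4 and 6 were -0.68, -2.21 and 0.73. Klf2, a transcription factor also known to respond to tissue dissociation, was 29.9 and 32.6 against 23.27 and 23.03 (-0.43), and stood at -0.36, -0.15 and -0.28 in the others. The Klf2 call was lost without CCR2+/- sample 2 (-0.37), CCR2-/- sample 1 (-0.44) or CCR2-/- sample 2 (-0.42). Of 21 listed immediate early and dissociation genes Klf2 was the only one called in any cluster, and the medians were -0.17, -0.10, -0.15 and -0.14 in clusters 0, 1, 4 and 6.

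Lifr, the receptor subunit for leukaemia inhibitory factor, was 1.01 and 1.01 against 0.422 and 0.414 in cluster 0 (-1.17, SE 0.21, limma adjusted p = 0.00692), called without any 1 sample. Its differences in clusters 1 and 6 were -0.60 and 0.30, neither called, and cluster 4 had too few counts. Baiap2, an adaptor between small GTPases and actin, was the other gene that rose in cluster 0 (0.222 and 0.135 against 0.606 and 0.467, 1.38), and it stood at -0.52 and -0.82 in clusters 1 and 6. Its call was lost without CCR2+/- sample 2 (1.10), CCR2-/- sample 1 (1.21) or CCR2-/- sample 2 (1.55).

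In cluster 1 further genes were called that were not shown to differ from the other clusters. Gpr84, a receptor for medium-chain fatty acids, was 2.75 and 4.19 against 5.34 and 6.16 (0.75, limma adjusted p = 0.00268), a call lost without CCR2+/- sample 1 (0.45). It stood at 0.39 in cluster 0 and had too few counts in clusters 4 and 6. Jdp2, a repressor of the AP-1 family, was 0.567 and 0.334 against 0.214 and 0.139 (-1.13), a call lost without CCR2+/- sample 1 (-0.78) or CCR2-/- sample 2 (-0.88), and it stood at -0.76, -0.19 and -0.01 in clusters 0, 4 and 6.

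Several programs were not called in any cluster. The homeostatic microglia genes, which mark resting microglia, had medians of 0.02, 0.02, 0.07 and 0.73 with 0 of 15, 15, 13 and 13 called by limma in clusters 0, 1, 4 and 6. The cluster 6 median was -0.05 when CCR2+/- sample 2 was left out and 1.48 when CCR2+/- sample 1 was. Cx3cr1, the fractalkine receptor, was 34.4 and 38.3 against 35.7 and 37.5 in cluster 1 (0.01). Cxcl10, an interferon-induced chemokine, was 1.40 and 2.16 against 1.53 and 2.01 there (0.01). MHC class II genes had a median of 1.31 in cluster 6 with 0 of 6 called; the median was 0.34 when CCR2-/- sample 1 was left out and 2.31 when CCR2-/- sample 2 was.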

How the data were processed

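The deposited values are the natural log of 1 plus a count per gene and cell that the authors corrected for depth with SCTransform, per the file headers; reads were processed with Cell Ranger 3.1 on mm10, per the submitters' processing notes. The corrected count was rebuilt exactly (within 2.18e-11 of a whole number, with cell sums equal to the deposited total in 100% of cells). Raw counts per gene were not used here, so no count model was run. Cell clusters, genotypes, hashtags and antibody gates are those of the authors. They kept cells assigned to 1 hashtag; doublets within a sample were not called.

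Corrected counts were summed per hashed sample and cluster, scaled to 10000 and tested as log2(level + 0.05) with limma 3.58.1 in R 4.3.3 (empirical Bayes with a mean-variance trend, Benjamini-Hochberg adjustment) on genes with at least 20 counts over the 4 samples. The differences of each cluster from the mean of the others, and the mean of all, were fitted on the 6157 genes tested in every cluster. Scripts were tested on simulated data.

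Genes named were those called alike in 2 or more clusters, the 10 of smallest p in each direction on the mean, the 5 of smallest p for each cluster's own difference, Ccr2, RFP, Cx3cr1 and Cxcl10, and up to 4 members of each list with the largest mean difference. Other genes were chosen after their values were seen. The members and lists were chosen with earlier results of these data known. Of 151 genes, 146 matched RefSeq, and 119 had a promoter there.

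Some called genes are not reported here.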

Additional observations from a re-analysis of the deposited data

Results flagged for a closer look

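The difference between genotypes was not the same in cluster 1 as in the other clusters for 9 genes, by the limma test of cluster 1 minus the mean of the other 3. Ptgs2 (1.76) and Cdkn1a (0.96), which encodes the cell cycle inhibitor p21, were higher on that difference, and Rgs1 (-0.99) was lower. Cdkn1a was 1.29 and 1.504 against 1.83 and 1.94 in cluster 1 (0.42, limma adjusted p = 0.0552, not called), and stood at -0.93 in cluster 4 and -0.87 in cluster 6. Its difference lost its call without CCR2+/- sample 2 (0.78).

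The 4 haemoglobin genes differed by 3.23 (Hbb-bs), 3.37 (Hba-a2), 2.96 (Hba-a1) and 2.78 (Hbb-bt). Spp1, which encodes the secreted protein osteopontin, differed by -2.53: in cluster 1 it was 0.0443 and 0.965 against 0.0493 and 0.0194, where 1 cell held 97.8% of the counts of CCR2+/- sample 2, and in cluster 4 it was 0 and 0.0981 against 0.537 and 0.69. Ptgds differed by 1.94 through its fall of 5.36 in cluster 6, since in cluster 1 its difference was -0.09.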

How the results depend on the processing

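Counts of called genes moved with the processing more than the differences did. No gene was called in any fit without limma's mean-variance trend (0 in all). With all deposited cells, cluster 0 had 0 calls, cluster 4 had 0, the mean had 41, cluster 1 minus the others 3, and 2 genes were called in 1 cluster only. At a hashtag share of at least 0.8 there were 6 shared genes: Il1a, Adamts1, Lifr and the haemoglobins Hba-a2, Hbb-bs and Hbb-bt. Gbp5 and Tmem86a were not among them. That share also gave 2 genes of 1 cluster only, 98 in cluster 1, 4 in cluster 4, 0 in cluster 6 and 7 on the mean. On the differences of clusters 0, 1, 4 and 6 from the others it gave 1, 2, 2 and 2. With cells thinned to 1000 counts there were 0 shared genes, 3 of 1 cluster only, 1 in cluster 0, 15 in cluster 1, 3 in cluster 6 and 0 on the mean. A minimum of 5 counts gave 1 shared gene, 10 of 1 cluster only, 0 in clusters 0 and 4 and 3 on the difference of cluster 6. A minimum of 60 gave 1 shared gene, 2 of 1 cluster only, 5 in cluster 0, 3 on the difference of cluster 1 and 3 on the mean. With cluster 6 kept to endothelial cells there were 1 shared gene, 1 of 1 cluster only, 5 in cluster 6, 2 on the difference of cluster 1 and 6 on the mean. Without each gene's highest cell there were 5 shared genes, 35 in cluster 6, 4 on the difference of cluster 1 and 12 on the mean. Equal weight per cell gave 23 in cluster 0 and 3 in cluster 6, median-of-ratios scaling 8 of 1 cluster only, 21 in cluster 6 and 2 on its difference, a total without ribosomal, mitochondrial and haemoglobin genes 19 in cluster 6, a pseudocount of 0.2 gave 8 of 1 cluster only and 1 and 3 on the differences of clusters 0 and 6, a pseudocount of 1 count 1 on the mean, and leaving out haemoglobin-rich cells 2 of 1 cluster only. The causes were not tested.

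Without 1 sample at a time, shared genes numbered 2 to 24, genes of 1 cluster only 8 to 68, calls 6 to 25, 31 to 131, 0 to 2 and 0 to 221 in clusters 0, 1, 4 and 6, 8 to 47 on the mean, and 0 to 25, 8 to 38, 0 to 120 and 1 to 171 on the differences of clusters 0, 1, 4 and 6; the genotype with 1 sample left was assumed to vary like the other. Of the 60 calls in cluster 1, 59 were also called at a hashtag share of 0.8, 55 with all deposited cells and 12 after thinning.

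Directions turned for Ptgds on the mean (0.21) and on the difference of cluster 1 (-0.36) at a hashtag share of 0.8. They also turned on the mean for Hba-a2 (0.45 with all deposited cells and 1.55 at that share) and Hbb-bs (1.504). Without haemoglobin-rich cells, Hbb-bs, Hba-a1 and Hba-a2 turned in cluster 1 (-0.90, -0.89 and -0.51), as did the differences of Hbb-bs (-0.72) and Hba-a1 (-0.81); without its highest cell that of Hba-a1 was -0.23. The leaving-out of haemoglobin-rich cells, the restriction to endothelial cells and the removal of each gene's highest cell were chosen after seeing the data.

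No paired analysis was possible because the hashtags of the genotypes share no numbers that would pair them. Cluster 4 held 31 to 86 cells a sample; what its depth could show was not tested.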
